A study of Mus musculus with 2 samples.

Results

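Immunoglobulin genes encode the heavy and light chains of antibodies and of the B cell receptor. The members described here are the genes of the deposited gene table whose symbols start with Ighv, Igkv, Iglv, Igkc, Iglc, Ighm, Ighd, Ighg, Igha or Ighe, together with Jchain and without Ighmbp2, which only shares the prefix. This name rule found 75 of the 19278 listed genes. They comprised 62 variable (V) genes, 12 constant region genes and Jchain, and the identifiers of all 75 were found in the GENCODE M21 annotation. The genes came from single-cell RNA sequencing of whole lungs of female BALB/c mice, which were 20 weeks old and had been fed from 4 weeks of age, for 16 weeks, on control diet (named CD) or on a diet high in lard fat (named HFD, high-fat diet). Fat gave 13% of the energy in CD and 60% in HFD, protein gave 27% and 20%, and carbohydrate gave 60% and 20%. Each diet was represented by 1 library, with 8793 cells and 42470977 unique molecular identifiers (UMIs) in CD and 9604 cells and 50679251 UMIs in HFD, and 27 cell barcodes occurred in both. The number of mice behind a library was not stated in the sources used here.

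An antibody consists of paired heavy and light chains, and a light chain is of the kappa or the lambda kind. In a developing B cell, recombination joins 1 V gene to short diversity and joining (J) segments at the heavy chain locus, or to a J segment at a light chain locus, so that different B cells transcribe different V genes in front of the same constant regions. The heavy chain constant region sets the antibody class. Naive B cells carry IgM and IgD, and switched cells carry IgG, IgA or IgE. Plasma cells secrete antibody in large amounts, and in mucosal tissue such as the airway much of it is IgA, whose dimers are held together by the J chain.

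The gene table is made over the cells of both diets together. It lists the genes that passed the study's filter, which ignored genes expressed in fewer than 5 cells, and it marks the 1000 highly variable genes on which the cells were placed and clustered. To be marked, a gene had to vary more between cells than genes of like expression and to exceed a mean normalised expression of 0.01. The flag therefore gives no level and no difference between diets, and a gene without it can be lowly expressed, evenly expressed or both. The values of single genes per cell, cell type or diet were not analysed here.

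The highly variable flag split the immunoglobulin genes by the kind of segment. Of the 12 constant region genes and Jchain, 9 carried the flag, whereas 0 of the 62 V genes did. The flag marked 5.19% of all listed genes, 5.26% of those left after the mitochondrial, ribosomal and cell cycle genes that the study excluded, and 5.91% of listed protein-coding genes. Over all 75 immunoglobulin genes it marked 12.0%. The V genes without the flag comprised 23 heavy, 37 kappa and 2 lambda genes. The constant genes with the flag comprised 4 of 7 at the heavy locus, the single kappa gene and 3 of 4 at the lambda locus. These shares are counts from 1 table and carry no replicate error. At a share of 5.19%, few flags would fall on 62 genes, so the 0 alone says little about V genes.

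**Figure D1:**
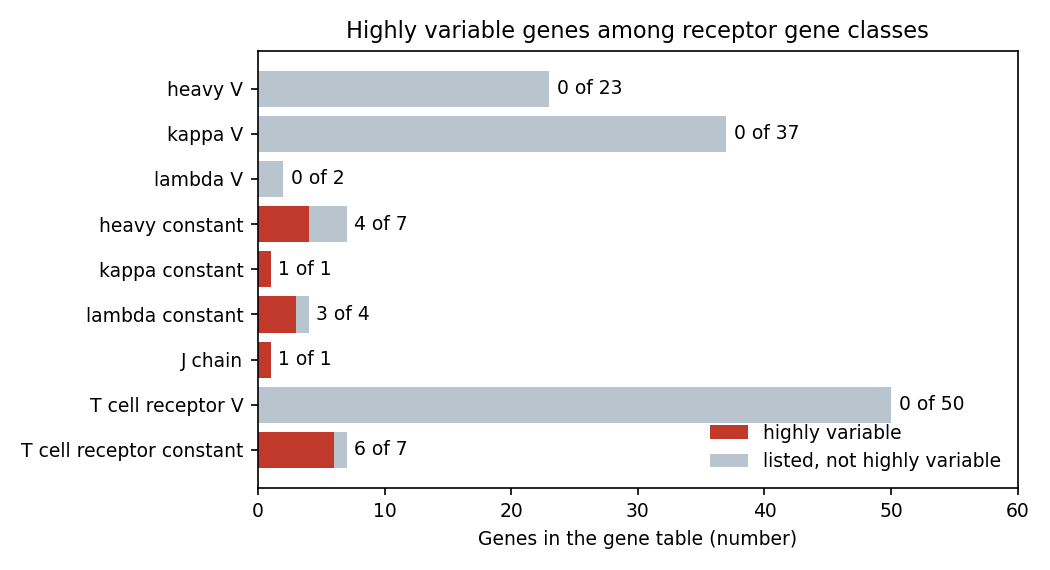
Number of genes in the gene table (x axis) for each class of immunoglobulin gene and for T cell receptor genes (y axis). Red marks genes with the highly variable flag and grey marks listed genes without it. No V gene has red, while 4 of 7 heavy constant, 1 of 1 kappa constant, 3 of 4 lambda constant and 6 of 7 T cell receptor constant genes do.

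Among the heavy chain constant genes, which lie on the minus strand of chromosome 12 in GRCm38, those of the unswitched classes were both flagged. Ighm, the constant gene of IgM, spans 113418558 to 113422730, and Ighd, the constant gene of IgD, lies next to it from 113406604 to 113416324. Igha, which encodes the constant region of IgA, was flagged as well and lies farthest from the V genes, from 113254830 to 113260236. Of the 4 listed IgG genes, Ighg1 (113325240 to 113330523) was flagged, while Ighg3 (113356224 to 113361232), Ighg2b (113302965 to 113307933) and Ighg2c (113285325 to 113288932) were not. Ighe, the constant gene of IgE, was the 1 of the 13 annotated constant genes that was not listed. Jchain (chromosome 5, 88519809 to 88527891, minus strand) carried the flag. The flagged set thus held the constant genes of IgM, IgD, IgA and IgG1 together with the J chain.

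The IgG genes are close relatives, which bears on how reads can be assigned to them. The coding sequences of Ighg2b and Ighg2c had an identity of 87.8%, and the other pairs of IgG genes had identities of 76.3% to 78.5%. At the level of 50-base words, a stand-in for short reads, 94.5% of the words of Ighg2c occurred in no transcript of another gene, compared to 95.9% for Ighg2b, 98.4% for Ighg3 and 99.6% for Ighg1. Words of Ighm, Ighd, Igha and Igkc were all unique to their gene. The reference genome is that of the C57BL/6J strain, whose Ighg2c is known to take the place of the Ighg2a gene that BALB/c mice carry. Whether this difference affected the counts of Ighg2c was not tested.

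The light chain constant genes are printed here because flagged and unflagged members can be compared base by base. Igkc (chromosome 6, 70726435 to 70726966, plus strand), the only kappa constant gene, was flagged. On the minus strand of chromosome 16, Iglc1 (19061618 to 19062071), Iglc2 (19198396 to 19200351) and Iglc3 (19065230 to 19065681) were flagged, and Iglc4 (19194999 to 19195312) was not. The last 300 coding bases of each come from the GENCODE M21 transcripts and are written 5′ to 3′. Capitals mark stretches of at least 50 bases that a lambda constant gene shares with another one, a search that did not include Igkc.
Igkc: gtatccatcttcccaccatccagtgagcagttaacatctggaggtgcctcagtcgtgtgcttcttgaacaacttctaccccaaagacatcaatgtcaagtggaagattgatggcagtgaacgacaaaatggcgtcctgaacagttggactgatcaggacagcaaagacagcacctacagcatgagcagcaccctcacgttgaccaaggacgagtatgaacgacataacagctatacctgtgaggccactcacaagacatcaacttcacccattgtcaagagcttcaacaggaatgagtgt
Iglc1: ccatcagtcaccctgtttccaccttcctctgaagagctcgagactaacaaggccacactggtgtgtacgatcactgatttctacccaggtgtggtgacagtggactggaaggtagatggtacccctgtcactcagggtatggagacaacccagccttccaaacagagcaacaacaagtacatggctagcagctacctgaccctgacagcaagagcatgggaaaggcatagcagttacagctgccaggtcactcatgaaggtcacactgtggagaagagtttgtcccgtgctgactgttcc
Iglc2: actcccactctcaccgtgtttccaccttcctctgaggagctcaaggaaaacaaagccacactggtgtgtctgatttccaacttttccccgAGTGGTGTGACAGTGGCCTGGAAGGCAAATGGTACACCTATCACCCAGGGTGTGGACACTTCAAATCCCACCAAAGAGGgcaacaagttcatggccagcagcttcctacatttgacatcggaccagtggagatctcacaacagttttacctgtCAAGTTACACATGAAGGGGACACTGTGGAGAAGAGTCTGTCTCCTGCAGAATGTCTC
Iglc3: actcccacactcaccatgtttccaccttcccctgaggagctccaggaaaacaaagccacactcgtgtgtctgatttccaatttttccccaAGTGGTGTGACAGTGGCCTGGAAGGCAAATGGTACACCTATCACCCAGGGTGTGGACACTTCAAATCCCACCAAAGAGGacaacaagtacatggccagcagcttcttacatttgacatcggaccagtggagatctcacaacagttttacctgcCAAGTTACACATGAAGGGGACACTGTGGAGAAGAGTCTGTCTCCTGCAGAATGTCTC
Iglc4: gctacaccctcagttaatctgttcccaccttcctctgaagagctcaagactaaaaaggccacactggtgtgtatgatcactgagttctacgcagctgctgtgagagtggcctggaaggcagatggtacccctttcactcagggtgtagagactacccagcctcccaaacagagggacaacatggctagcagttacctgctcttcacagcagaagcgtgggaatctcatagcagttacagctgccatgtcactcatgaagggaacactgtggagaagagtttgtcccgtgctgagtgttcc

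Capitals covered 136 bases in Iglc2 and the same number in Iglc3, and none in Iglc1 or Iglc4. The coding sequences of Iglc2 and Iglc3 were 96.5% identical. Iglc4 was closest to Iglc1, at 84.6%. Over whole transcripts, 77.7% of the 50-base words of Iglc3 and 92.3% of those of Iglc2 were unique to the gene, against 100% for Iglc1 and Iglc4. How reads that fit both Iglc2 and Iglc3 were treated is not given in the sources used here. Iglc1 and Iglc3 both lie within the span of 2010309G21Rik, a gene on the opposite strand that was listed without the flag. Iglc1 lies in an intron of it, and part of Iglc3 lies opposite one of its exons.

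Next, the V genes in the table were compared with those in the annotation, which asks how much of each germline repertoire passed the filter. Of the 216 functional V genes of the 3 loci, 60 (27.8%) were listed, compared to 72.6% of annotated protein-coding genes. At the heavy locus 21 of 113 functional V genes (18.6%) were listed, at the kappa locus 37 of 100 (37.0%) and at the lambda locus 2 of 3. The 2 other listed V genes, Ighv3-2 and Ighv1-14, are annotated as pseudogenes. None of the 19 diversity and 14 J segments of the annotation was listed. The labels name a droplet kit that reads transcripts from the 3′ end and the study's methods one that reads from the 5′ end. These kits differ in whether reads reach the V part of an antibody transcript, and their part in the V counts was not tested. BALB/c V genes also differ from those of the reference strain, and the part of this in the counts was not tested either.

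Listed V genes came from some families more than others. At the heavy locus, 7 of 16 families had a listed functional gene. Ighv5 had 6 of 10 and Ighv2 had 4 of 9 listed, while Ighv1, by far the most numerous family of the annotation, had 6 of 53. Single genes were listed from Ighv6, Ighv8 and Ighv9 and 2 genes from Ighv3, and the families Ighv4, Ighv7 and Ighv10 to Ighv16 had none. At the kappa locus, 14 of 20 families had a listed gene. Igkv12 had 5 of 6 and Igkv6 had 6 of 9 listed, compared to 4 of 26 for Igkv4, the most numerous kappa family. Both functional genes of Igkv17 and the only functional genes of Igkv15 and Igkv19 were listed.

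At the heavy locus, the listed share was highest in the V genes nearest to the J segments. V genes and V pseudogenes were ranked by their distance from the first J segment and split into 3 bins of near-equal size. Of the 62 nearest, 14 (22.6%) were listed, compared to 4 of the 62 in the middle bin (6.45%) and 5 of the 61 farthest (8.20%). Their exact 95% binomial intervals of 12.9 to 35.0, 1.79 to 15.7 and 2.72 to 18.1 overlapped. These intervals treat genes as independent draws, which related neighbouring genes need not be, so their overlap decides nothing. No test was made because genes are not replicates. With pseudogenes left out, the counts were 12 of 38, 5 of 38 and 4 of 37, so the nearest bin had the highest share either way. The functional Ighv2 and Ighv5 genes all lie in the nearest bin and those of Ighv1 all lie outside it. Family and position thus cannot be told apart here. The nearest listed heavy V gene was Ighv2-2 (chromosome 12, 113588267 to 113588702, minus strand), 158 kb from the first J segment, and the farthest was Ighv1-78 (115868773 to 115869227) at 2439 kb. The longest run of V genes and pseudogenes without a listed one held 28 of them, 12 functional, and ran from Ighv1-20 to Ighv1-46 in the middle of the locus.

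At the kappa locus the bins had the same order when pseudogenes were counted, but not among functional genes. Over V genes and pseudogenes, 19 of the 54 nearest to the J segments (35.2%), 6 of 53 in the middle (11.3%) and 12 of the 53 farthest (22.6%) were listed. Among functional genes alone the counts were 13 of 34, 11 of 33 and 13 of 33, which is nearly even. The listed genes ran from Igkv3-2 (chromosome 6, 70698449 to 70699067, plus strand) at 23.5 kb to Igkv2-137 (67555497 to 67556216, plus strand) at 3166 kb, which is the last annotated V gene of the locus. Kappa V genes lie on both strands, and those on the strand opposite to the J segments are joined by inversion instead of deletion of the DNA in between. On the strand of the J segments 17 of 38 functional genes were listed (44.7%), and on the other strand 20 of 62 (32.3%).

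**Figure D2:**
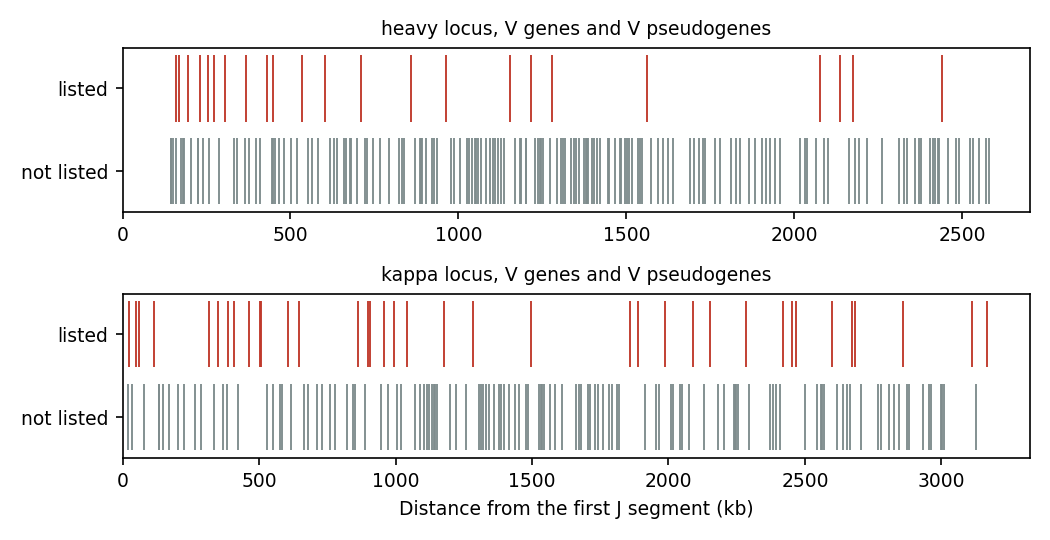
Distance of each annotated V gene or V pseudogene from the first J segment of its locus in kb (x axis), for the heavy locus (top) and the kappa locus (bottom). Each line is 1 gene, red where it is listed in the gene table and grey where it is not. At the heavy locus 14 of the 62 nearest, 4 of the 62 middle and 5 of the 61 farthest genes are red. At the kappa locus these counts are 19 of 54, 6 of 53 and 12 of 53.

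The lambda locus of the mouse is small, with 3 functional V genes. Iglv1 (chromosome 16, 19085017 to 19085500) and Iglv3 (19241207 to 19241690), both on the minus strand, were listed, and Iglv2 was not. The coding sequences of Iglv1 and Iglv2 were 96.9% identical, while Iglv3 was 57.3% identical to each of them. All 4 lambda constant genes were thus listed next to 2 of the 3 lambda V genes.

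The end of the V sequence was examined because it is the part that recombination joins to another segment. This is a diversity segment at the heavy locus and a J segment at the light chain loci. The last 60 coding bases are shown for the listed V genes nearest to and farthest from the J segments of the heavy and kappa loci, and for both listed lambda V genes. Capitals mark the motif TANTNNTG and the base after it, which hold the codon of the conserved second cysteine of the V domain. The motif was chosen after the sequences had been seen and was searched on the coding strand in the last 45 coding bases.
Ighv2-2: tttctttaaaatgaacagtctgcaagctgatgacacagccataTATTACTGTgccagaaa
Ighv1-78: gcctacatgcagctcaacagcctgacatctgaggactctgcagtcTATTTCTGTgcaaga
Igkv3-2: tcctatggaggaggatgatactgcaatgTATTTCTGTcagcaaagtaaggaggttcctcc
Igkv2-137: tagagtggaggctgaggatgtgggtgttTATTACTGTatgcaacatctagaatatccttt
Iglv1: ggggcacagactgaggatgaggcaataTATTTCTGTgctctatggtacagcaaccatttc
Iglv3: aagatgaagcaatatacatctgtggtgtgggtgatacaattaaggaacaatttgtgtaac

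The motif was present in all 21 listed functional heavy V genes and in 36 of the 37 listed kappa V genes. Over all functional V genes it was found in 108 of 113 at the heavy and 97 of 100 at the kappa locus. Of the lambda V genes shown, Iglv1 held the motif and Iglv3 did not. The printed Iglv3 bases include tacatctgt, which departs from the motif by an a in place of a T. The missing motif therefore does not show that Iglv3 lacks the cysteine codon. For comparison, 3.53% of the 45-base windows of protein-coding transcripts held it.

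Since V genes resemble each other, their overlap in sequence was compared between listed and unlisted genes. The median listed heavy V gene had 80.9% of its 50-base words to itself (range 44.6% to 100%), and the median unlisted one 76.8% (2.58% to 100%). For kappa V genes the medians were 71.0% (25.7% to 100%) in listed and 75.4% (32.4% to 100%) in unlisted genes. The ranges overlapped widely at both loci, and with this word length the medians lay in opposite order. Identity was taken over whole transcripts, to the nearest V gene or V pseudogene of the locus. Its median was 94.6% in listed and 95.7% in unlisted heavy genes, and 95.2% and 94.0% in kappa genes. A neighbour of at least 98% identity existed for 0 of 21 listed and 14 of 92 unlisted heavy V genes, and for 3 of 37 listed and 3 of 63 unlisted kappa V genes. The least distinct listed genes were Igkv4-59, with 25.7% unique words, and Igkv6-20, with 35.9% and an identity of 98.7% to Igkv6-29. The listing of such genes is uncertain, as reads of a near copy could have been counted for them or lost.

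**Figure D3:**
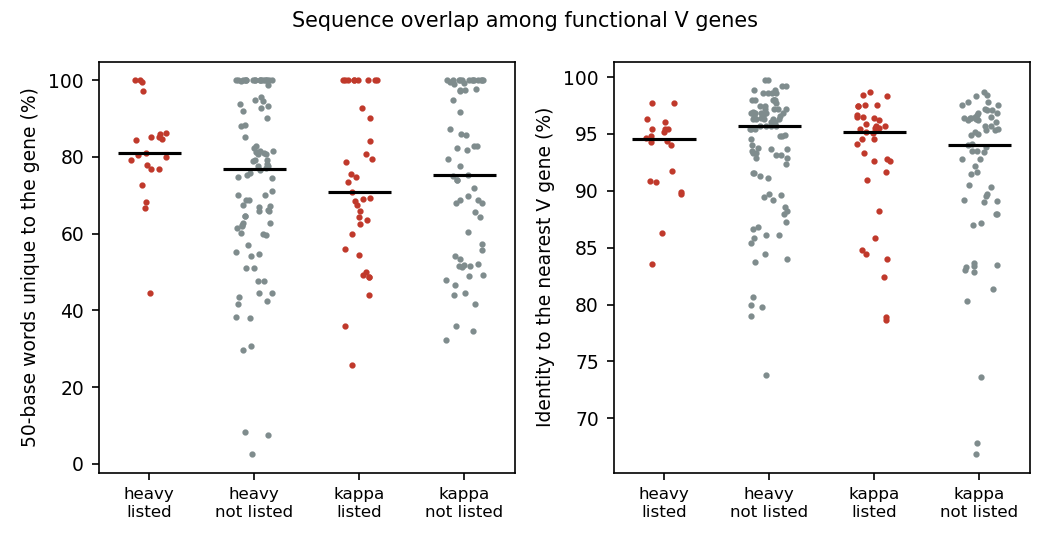
Functional V genes by locus and by whether they are listed in the gene table. The left panel shows the percent of a gene's 50-base words found in no transcript of another gene. The right panel shows the percent identity over whole transcripts to the nearest V gene or V pseudogene of the same locus. Each point is 1 gene and each black line a median. Listed and unlisted genes span overlapping ranges, with medians of 80.9% and 76.8% unique words at the heavy locus and of 71.0% and 75.4% at the kappa locus.

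T cell receptor genes are assembled by the same recombination and were compared as the most similar group. By symbol the table listed 57 of them, 50 V genes, of which Trbv24 is annotated as a pseudogene, and 7 constant genes. As for immunoglobulins, 0 of the V genes were flagged, beside 5.19% of all listed genes. Of the constant genes, Trac, Trbc1, Trbc2, Trdc, Tcrg-C1 and Tcrg-C4 were flagged and Tcrg-C2 was not. By annotated type in place of symbol, 50 of 144 functional T cell receptor V genes (34.7%) were listed. This set leaves out Trbv24 and includes B230359F08Rik, whose symbol does not name a T cell receptor gene. The share of 34.7% lies between those of the heavy and kappa V genes. Flags on constant genes and none on V genes were thus counted in both receptor families. At a share of 5.19%, few flags would fall on 50 genes, so the 0 alone says little about V genes.

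Other genes of the antibody pathway were taken from a list of 46. Of these 41 were listed and 17 flagged (41.5% of those listed, beside 5.19% of all listed genes). Among the genes of the B cell receptor group, the signalling partners Cd79a and Cd79b, Ms4a1 (CD20) and the complement receptor Cr2 were flagged, whereas the coreceptor Cd22 and the kinases Blk, Lyn, Syk and Btk were not. Of the 6 transcription factors of B cells, 5 were flagged (Pax5, Ebf1, Pou2af1, Pou2f2 and Spib) and Bach2 was not. The 10 plasma cell genes were all listed, and 1 of them, Mzb1, a chaperone of antibody assembly, was flagged. Xbp1 and Prdm1, which direct the plasma cell programme, and Sdc1 (CD138) and Tnfrsf17 (BCMA), which mark these cells, were not flagged. In the group that the list named surrogate light chain, Vpreb3 was flagged, Vpreb1 was listed without the flag, and Igll1 and Vpreb2 were not listed. That Vpreb3 is part of this chain is not claimed here. The recombinase genes Rag1 and Rag2 were not listed either, and Ung and Dntt were listed without the flag. Of 11 genes for antibody receptors and transport, 6 were flagged. They included Pigr, which carries IgA and IgM across epithelium, Fcmr, which binds IgM, and Fcer2a, the low-affinity IgE receptor of B cells.

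The annotation of cells names B cells as the only antibody-producing type, and none of its 17 cell type names denotes plasma cells. B cells numbered 1759 in 5 fine clusters. The CD library had 919 of them, or 10.5% of its cells, with an exact 95% binomial interval of 9.82 to 11.1. The HFD library had 840, or 8.75%, with an interval of 8.19 to 9.33 that lay below it. Among cells with at least 2000 UMIs the intervals overlapped, at 10.6% and 9.85%. Cluster 18 held 248 cells in CD, a share of 2.82% (2.48 to 3.19), and 177 in HFD, a share of 1.84% (1.58 to 2.13). The ratio of HFD to CD was 0.653, and the intervals stayed apart with at least 2000 UMIs. The intervals of clusters 3, 21, 48 and 49 overlapped between diets. Cluster 3 made up 5.20% and 4.69%, cluster 21 2.09% and 1.99%, cluster 48 0.216% and 0.125%, and cluster 49 0.125% and 0.104% of CD and HFD cells. With at least 2000 UMIs the order of clusters 3 and 21 turned, to ratios of 1.03 and 1.09, and their intervals still overlapped. In cluster 18 the median cell had 2482.5 UMIs in CD and 2795 in HFD. This was not particular to cluster 18, as the medians over all B cells were 2468 and 2784. The HFD median was also the higher in clusters 3, 21 and 48, and the lower in cluster 49. The small clusters 48 and 49, with 31 and 21 cells, had medians of 5312 and 7338 UMIs, compared to 2392 to 2648 in the 3 larger ones. How doublets were treated is not given in the sources used here, no doublets were removed here, and their part in clusters 48 and 49 was not tested. With 1 library per diet no test was possible, the intervals cover counting error only, and differences between diets and between preparations cannot be told apart. The flagged immunoglobulin genes were among the genes used to form these clusters, so the clusters and the flags are not independent.

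**Figure D4:**
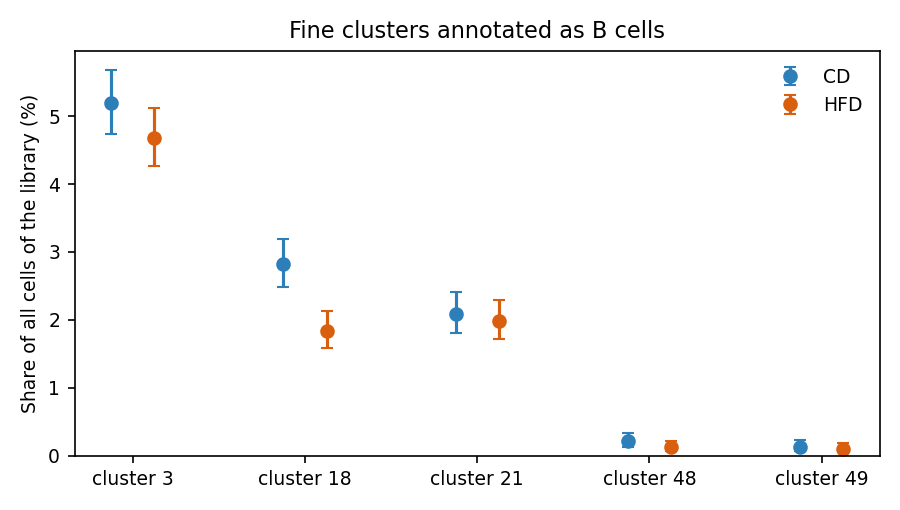
Share of all cells of a library in percent (y axis) for each fine cluster annotated as B cells (x axis), in CD (blue) and HFD (orange). Points are shares and bars are exact 95% binomial intervals, which cover counting error only. The intervals of cluster 18 do not overlap (2.82% in CD and 1.84% in HFD), and those of the other 4 clusters do.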

How the data were processed

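Whole lungs were dissociated, depleted of red blood cells and captured in droplets, 1 library per diet. Per the labels and the study's methods, the authors mapped reads with Cell Ranger to GRCm38.p6 (mm10), merged the UMI matrices of both libraries in Seurat (4.1.0 in the submitters' processing notes), filtered cells and ignored genes expressed in fewer than 5 cells. They then selected 1000 highly variable genes after leaving out mitochondrial, ribosomal-protein and cell cycle genes. The deposited gene table holds only yes-or-no flags. The deposited cell table holds the count of UMIs per cell, not normalised, and the percent of mitochondrial UMIs per cell.

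Members were found by symbol and joined by identifier to GENCODE M21 (GRCm38, the build of the files), in which 19258 of 19278 identifiers were found. Some rows may have been left out of the table used here, so an absent gene is called not listed. Functional V genes are those annotated IG_V_gene. Coding parts came from the GENCODE transcripts. Identity was 100% minus the edit distance of the shorter sequence placed anywhere in the longer one, in percent of its length (edlib). It used whole transcripts for the nearest V gene and coding parts for the named pairs of constant or lambda V genes. Unique words were the distinct 50-base words of a gene found in no transcript of another gene, on either strand. Shares of cells, and of V genes per bin of the heavy locus, have exact (Clopper-Pearson) 95% intervals. No test was run, because each diet had 1 library and genes are not replicates. All constant genes and Jchain were to be named, flagged V genes up to 10 per locus, the listed V genes nearest to and farthest from the J segments, and the pathway list, of which some genes are not reported here. Members, lists and comparisons were chosen with earlier results of these data known. The calculations were tested on simulated data. The work was done in Python 3.11.15 with scipy 1.17.1, numpy 2.4.6 and pandas 2.3.3, and plots with matplotlib 3.10.9.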

Additional observations from a re-analysis of the deposited data

How the results depend on the processing

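Among 61 values recomputed with other choices, 47 stayed inside the reported value's interval or quartiles (counts: 1.5 times) and 14 left it. The number of members was 75 with J segments added and 73 without pseudogenes. The share with the highly variable flag stayed at 0 for V genes of each locus without pseudogenes. Counting pseudogenes lowered the listed share of kappa V genes to 23.1%, and leaving them out gave 38.2%, 33.3% and 39.4% in the nearest, middle and farthest kappa bins, so that the middle bin was still the lowest but by less. Median identity to the nearest listed V gene, with fewer genes compared, was 91.7% for listed and 88.5% for unlisted heavy genes, and 91.0% for listed and 91.6% for unlisted kappa genes, so that the order of listed and unlisted genes turned at both loci. Word lengths of 30 and 90 bases were chosen after seeing the data. With 30 bases the median unique share was 58.5% (heavy, listed), 51.2% (heavy, unlisted), 49.7% (kappa, listed) and 55.9% (kappa, unlisted), in the same order as with 50 bases, and with 90 bases it was 100%, 99.8%, 99.3% and 99.2%, so that the listed median was then the higher at both loci. At least 2000 UMIs per cell gave B cells 9.85% and cluster 3 5.51% of HFD cells, the cause was not tested, and the intervals of cluster 18 still did not overlap (2.93% in CD and 2.06% in HFD). RefSeq V segments gave listed shares of 18.3% for heavy and 36.3% for kappa genes.

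The octamer of V promoters (ATTTGCAT or ATGCAAAT, both strands) and the recombination signals were not analysed here. In the 250 bases before the Jchain start of the RefSeq promoter table (GRCm38.p6) neither octamer occurred, and 1.60% of all promoters held 1, or 16.6% with a mismatch allowed. No paired analysis was possible because there was a single library of each diet. Genes below the filter and genes without reads cannot be told apart, and depth behind a single gene is unknown.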

Other observations

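Both genes described here were chosen after their values had been seen. Gm30211, annotated as a long noncoding RNA, was the only listed gene other than the members that lay between the outermost kappa V gene and 20 kb beyond Igkc, and it carried the highly variable flag. It spans 70719074 to 70740554 on the plus strand of chromosome 6, the strand of Igkc, and Igkc lies in an intron of it. Whether reads of the kappa transcript were counted for Gm30211 was not tested. Gm37511, annotated as an immunoglobulin V pseudogene, was listed outside the name rule and carried no flag.

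The number of UMIs per detected gene differed between the B cell clusters and some cells without an annotation. Its median was 2.42 to 3.08 in the 5 B cell clusters. It was highest among all 51 clusters in the unannotated clusters 39, 50 and 45, at 10.8, 10.6 and 9.50, followed by AT2 cluster 27 at 4.17. The genes that hold these UMIs were not analysed here, and no cell type is proposed for these clusters.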
